A study of Mus musculus with 13 samples.

Results

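Innate nucleic acid sensors and adaptors were described in liver tissue of Balb/c mice treated with antisense oligonucleotides (ASOs). A list of 10 genes was looked for by symbol in the deposited liver table: Tlr3, Tlr7, Tlr9, Ddx58, Ifih1, Cgas, Sting1, Myd88, Irf3 and Unc93b1. Of these, 8 were among the 11779 genes of that table, and no level of Tlr9 or Cgas was analysed here. The rule matched symbols and used no measured value, although the list was drawn up with earlier results of these data known. The series holds 3 Liver LL35 ASO and 3 Liver Luc ASO samples, collected on day 5 after the injection. The LL35 ASO mice received a mix of GalNAc-conjugated ASOs against the long non-coding RNA LL35/Falcor, and the Luc ASO mice a GalNAc-conjugated ASO against firefly luciferase, a sequence the mouse genome lacks. GalNAc is a sugar that directs a conjugate to the asialoglycoprotein receptor of hepatocytes. Both groups therefore carried a foreign oligonucleotide, no liver without one was analysed here, and the sex and age of the mice were not given in the sources used here. The series also has AML12 cells, a murine hepatocyte line, with 3 AML12 Luc ASO and 4 AML12 LL35 ASO samples on day 2, which were not analysed here.

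Cells recognize foreign nucleic acids in 2 compartments. In endosomes, Toll-like receptor 3 binds paired RNA strands, Toll-like receptor 7 binds unpaired RNA and Toll-like receptor 9 binds DNA with unmethylated CpG. In the cytosol, RIG-I (the product of Ddx58) and MDA5 (the product of Ifih1) bind viral RNA, while cGAS binds DNA and signals through STING, the product of Sting1. These routes meet at adaptors and kinases that activate IRF3 and related factors, which switch on interferon genes. In the liver, such sensors are known from Kupffer cells, endothelial cells and hepatocytes, the last including RIG-I and MDA5.

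For each gene the table gave 1 value that could be used, the authors' mean normalized count over the compared liver libraries, with LL35 ASO and Luc ASO mice pooled. The table does not state which libraries entered this mean. Values of single mice were not analysed here, so no level has an error or n, no test was made, and no difference between LL35 ASO and Luc ASO is given. The depth of each library is unknown. The mean normalized counts summed to 11299288, of which Alb alone took 10.8%, and the lowest was 15.6. The 8 sensors and adaptors together had a mean normalized count of 1924. Because a longer transcript gives more reads, levels were compared between genes as mean normalized count per kb of merged exons. The median listed gene stood at 51.5 per kb, with quartiles of 20.7 and 128 per kb. Shares and ranks are among listed genes only, none of which had a mean under 15.6. A gene that is not listed is therefore not shown to be absent from the tissue.

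Markers of the hepatocyte list were the most abundant in this tissue, with 6 of 6 listed between 4262 per kb for Serpina1c and 519843 per kb for Alb. Kupffer cell markers were all listed, 10 of 10, from 55.4 per kb for Timd4 to 791 per kb for Clec4f. The 5 sinusoidal endothelial markers lay between 126 and 289 per kb and the 4 stellate cell markers between 36.8 and 265 per kb. Of 4 B cell markers none was listed, of 5 markers of plasmacytoid dendritic cells, which are rich in Tlr7 and Tlr9, only Ly6d was, and of 4 T cell markers only Cd3e was. Among neutrophil markers, 2 of 4 were listed, S100a8 with 33.1 and S100a9 with 35.9 per kb. Fewer cells of a type and less RNA per cell cannot be told apart in whole tissue, and the part of each cell type in the levels below was not tested.

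Levels of the 8 genes spread over an 11.9-fold range per kb. Irf3 was the highest and Sting1 the lowest. From the highest down, the order was Irf3, Unc93b1, Myd88, Ifih1, Ddx58, Tlr7, Tlr3 and Sting1. The transcription factor, the trafficking protein and the adaptor stood above the median listed gene, the RNA helicases near it, and the Toll-like receptors and STING well below it. Thus 3 of the 8 exceeded the median listed gene per kb of merged exons. By mean normalized count not divided by length, Myd88 fell under the median listed gene, with 44.8% of the genes lower, while Ifih1 and Ddx58 stood above it, with 64.9% and 60.9% lower. With no spread between mice, neighbors in this order could not be shown to differ.

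**Figure D1:**
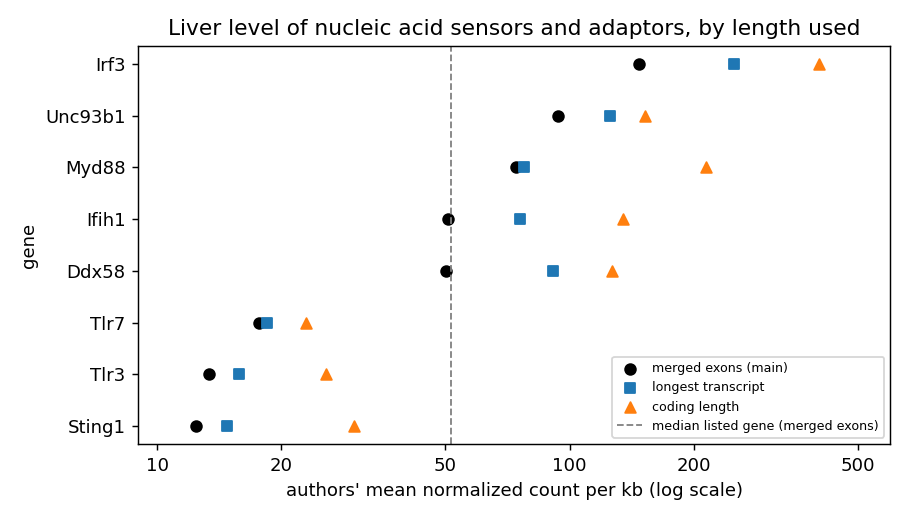
Authors' mean normalized count per kb (log scale) for the 8 listed genes, divided by merged exon length (circles), by the longest transcript (squares) or by coding length (triangles), with the median listed gene at 51.5 per kb of merged exons as a dashed line. Irf3 is highest and Tlr7, Tlr3 and Sting1 are the lowest 3 under each length, while the genes between change places.

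Among the endosomal receptors, Tlr7 and Tlr3 were both scarce. Tlr7 had a mean normalized count of 72.1 over 4082 bases of merged exons, that is 17.7 per kb, and 21.6% of the listed genes stood lower. Tlr3 had a mean normalized count of 69.5 over 5207 bases, 13.3 per kb, with 16.3% of the listed genes lower. The level of Tlr7 was 1.32 times that of Tlr3 per kb of merged exons and 0.894 times per kb of coding length, so their order turned with the length used. An exon of the predicted gene Gm45542 on the opposite strand covered 381 bases, or 7.32%, of the exons of Tlr3. Reads there are told apart only where counting used strand, and this setting was not given in the sources used here.

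Other Toll-like receptors were as low. Of 9 further receptors, 6 were listed, and each lay under the median listed gene, from 6.22 per kb for Tlr6, a partner of TLR2 in the sensing of bacterial lipopeptides, to 25.3 per kb for Tlr13, a murine endosomal sensor of bacterial ribosomal RNA. Tlr8, the closest relative of Tlr7, had 23.1 per kb, 1.31 times the level of Tlr7. Tlr4, the receptor for lipopolysaccharide, had 16.0 per kb and Tlr5, the flagellin receptor, 21.9 per kb. Among these 8 receptors, which spanned a 4.07-fold range, Tlr7 took place 4 and Tlr3 place 6 per kb of merged exons, and places 6 and 5 per kb of coding length. Clec4f, the Kupffer cell lectin, stood 44.8 times above Tlr7 and 59.3 times above Tlr3.

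Unc93b1 encodes the membrane protein that carries TLR3, TLR7 and TLR9 from the endoplasmic reticulum to endosomes. Its mean normalized count was 284 over 3031 bases, 93.6 per kb, and 67.4% of the listed genes were lower. This was 3.02 times the summed level of Tlr3 and Tlr7, and between 2.00 and 3.65 times under the other settings for length. That sum leaves out the higher Tlr13 and Tlr8, at 25.3 and 23.1 per kb, so the ratio does not cover all endosomal receptors. The 9 other genes of receptor trafficking and processing were all listed and 8 of them exceeded the median listed gene. Hsp90b1, the chaperone gp96 needed to fold Toll-like receptors, had 2957 per kb, 31.6 times Unc93b1, and its co-chaperone Cnpy3 had 115 per kb. Slc15a4, a lysosomal transporter required for TLR7 and TLR9 signaling, stood at 171 per kb, whereas the nucleoside transporter Slc29a3 was the lowest of the list with 16.3 per kb.

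The cytosolic RNA sensors sat near the median listed gene per kb of merged exons, and their side of it depended on the setting. Ifih1 had a mean normalized count of 414 over 8165 bases, 50.7 per kb. Ddx58 had 353 over 7050 bases, which left it 0.972 times the median listed gene. The share of listed genes with a lower level was 49.6% for Ifih1 and 49.1% for Ddx58, and 40.5% and 40% among genes with a mean of 50 or more. Their ratio was 1.01 per kb of merged exons, 0.831 with the longest transcript and 1.06 with the coding length, so no order between them was found. Together they had 3.25 times the summed level of Tlr3 and Tlr7, and from 3.14 to 5.41 times under the other settings for length. Tlr8 and Tlr13, each above Tlr7 and Tlr3 at 23.1 and 25.3 per kb, were not in this sum. The ratio therefore does not compare all endosomal with all cytosolic RNA sensors. Dhx58, which encodes LGP2, the third RIG-I-like receptor, without the caspase recruitment domains that signal, was lower at 24.5 per kb, so that Ifih1 stood 2.07 times and Ddx58 2.04 times above it. With the coding length these ratios were 3.42 and 3.22.

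Mavs, the mitochondrial adaptor through which RIG-I and MDA5 signal, had 482 per kb, which was 9.50 times Ifih1 and 9.63 times Ddx58. With the longest transcript these ratios were 6.96 and 5.79. Of the 11 partners of cytosolic RNA sensing, all were listed and 8 exceeded the median listed gene. Among those 8, Adar, Eif2ak2 and Rnf135 did so narrowly, at 1.00, 1.01 and 1.03 times it, in a mean without error. Trim25, a ubiquitin ligase of the RIG-I pathway, had 238 per kb, and Rnf135 (Riplet), another ligase acting on RIG-I, had 53.1 per kb. Eif2ak2, the RNA-activated kinase PKR, stood at 52.0 per kb and Adar, which edits paired RNA and so hides it from MDA5, at 51.5 per kb, both close to the helicases. The list ran from 9.56 per kb for Zcchc3, a co-receptor of the RNA sensors, to 716 per kb for the RNA helicase Ddx3x.

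**Figure D2:**
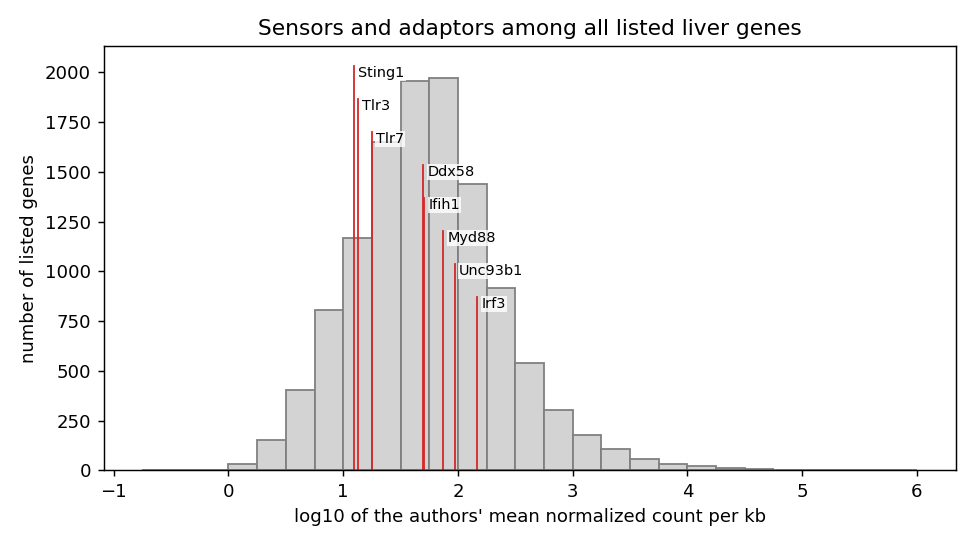
Histogram of the log10 authors' mean normalized count per kb of merged exons over listed genes with a length (bars, number of genes in each step), with the 8 sensors and adaptors as red lines whose heights only separate the names. Sting1, Tlr3 and Tlr7 lie left of the peak, between 12.4 and 17.7 per kb, Ddx58 and Ifih1 lie in it, and Irf3 lies furthest right at 147 per kb.

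Sting1, the endoplasmic reticulum adaptor that receives the cyclic dinucleotide made by cGAS, was the lowest of the 8 genes. Its mean normalized count was 33.9 over 2741 bases, 12.4 per kb, and 15.0% of the listed genes were lower. That mean was 2.17 times the lowest mean of the table. Sting1 stayed within 1.08-fold of Tlr3 per kb of merged exons, and with the coding length it rose above both Tlr3 and Tlr7, at 29.9 against 25.6 and 22.9 per kb. Mavs, which holds the same place in the RNA pathway, was 38.9 times higher than Sting1. The 10 partners of cytosolic DNA sensing were listed, with 3 above the median listed gene. Aim2, the DNA sensor of an inflammasome, was lowest with 7.44 per kb, Ifi204 and Zbp1, both interferon-inducible sensors, had 12.1 and 11.9 per kb, and Pqbp1, a cGAS cofactor, was highest with 96.9 per kb.

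Myd88 encodes the adaptor of all Toll-like receptors but TLR3. Its mean normalized count was 191 over 2576 bases, 74.0 per kb, with 60.6% of the listed genes lower. It was 4.19 times the level of Tlr7 per kb of merged exons and 9.37 times with the coding length, and 5.97 and 7.17 times that of Sting1. Exons of Acaa1a, a peroxisomal thiolase gene, covered 290 bases, or 11.3%, of the exons of Myd88 on the opposite strand, and leaving these bases out of its length gave 83.3 per kb. Ticam1, which encodes TRIF, the adaptor of TLR3, had 86.5 per kb, 6.48 times the level of Tlr3. The ratio of Myd88 to Ticam1 was 0.855 per kb of merged exons and 1.82 with the coding length, so their order also turned with the length. Tirap, the bridging adaptor of TLR2 and TLR4, had 77.1 per kb, next to Myd88, but 508 against 215 per kb of coding length. Irak1 and Irak4, kinases that act downstream of MyD88, had 148 and 17.8 per kb, and the inhibitory Irak3 was the lowest of its list with 4.76 per kb. Of the 17 adaptors and kinases, 16 were listed and 9 exceeded the median listed gene.

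Irf3, the transcription factor phosphorylated after TLR3, RIG-I, MDA5 or STING signaling, was the highest of the 8 genes on each scale tried. Its mean normalized count was 507 over 3442 bases, 147 per kb, and 78.0% of the listed genes were lower. Exons of Bcl2l12 on the opposite strand covered 88 bases, or 2.56%, of its exons. Irf3 was also the highest of the 8 listed interferon regulatory factors per kb of merged exons and with the longest transcript, whereas Irf2, a repressor of interferon responses, took the first place with the coding length. Irf7, the interferon-inducible partner of IRF3, had 73.0 per kb, so that Irf3 stood 2.02 times above it, and Irf1 had 78.7 per kb. Irf8 and Irf5, factors of myeloid cells, were the lowest with 19.2 and 27.9 per kb. Tbk1, the kinase of IRF3, had 139 per kb, 0.941 times Irf3 and 0.614 times with the coding length, while the related kinase Ikbke had 34.8 per kb.

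Over the 8 lists of further pathway genes, 73 of 85 genes were listed, and 40 of them, or 54.8%, exceeded the median listed gene. Their median level was 68.3 per kb, beside 50.4 per kb for the 8 sensors and adaptors. By the construction of the median, a list like the whole table would have equal numbers above and below it. The Toll-like receptors were the list with 0 of 6 above.

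**Figure D3:**
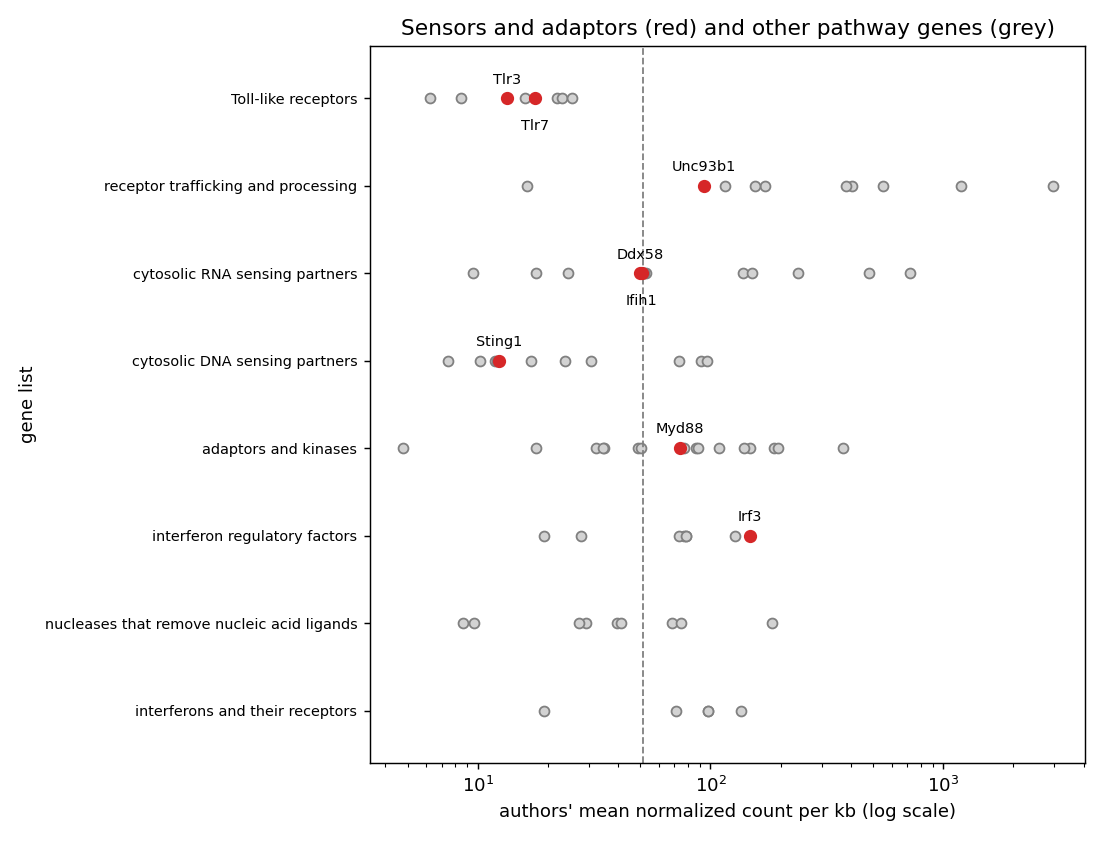
Authors' mean normalized count per kb of merged exons (log scale) for the listed genes of 8 pathway lists (grey) and the 8 sensors and adaptors placed beside the list of their pathway (red), with the median listed gene as a dashed line. Each Toll-like receptor, 25.3 per kb at most, lies left of the line, and Irf3 leads the interferon regulatory factors.

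Start-site windows of 300 bases, from 250 before to 50 after the start, were available from RefSeq (build GRCm38.p6) for 7 of the 10 genes, with 1 window each. They are shown because interferon-stimulated genes often carry an interferon-stimulated response element near the start. Its core was searched as GAAA, then any 2 bases, then GAAA again, on both strands. A match stood in the windows of Ddx58, Ifih1 and Myd88, that is 3 of 7, and in 3.44% of the 32851 mouse windows of that table. The matches follow with 8 bases on either side, read on the strand that carries the core, which is in capitals.
Ddx58: ggccatagGAAATCGAAActgcctca
Ifih1: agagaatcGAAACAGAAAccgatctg
Myd88: gcttctcgGAAAGCGAAAgaaggagg
They lie at chr4:40239806-40239831, chr2:62646206-62646231 and chr9:119340041-119340066. All 3 genes lie on the minus strand. The core was centered 7 bases after the start of Ddx58, on the strand opposite to the gene, 37 bases after the start of Ifih1 and 35 bases before that of Myd88, both on the strand of the gene. A match is a description of letters and was not tested for binding. The windows of Tlr3, Tlr9, Cgas and Irf3 held no such letters. CpG dinucleotides numbered 18 for Irf3, 16 for Cgas, 15 for Ddx58, 14 for Ifih1, 13 for Myd88 and 10 for Tlr3, against a median of 7 over all windows, while the window of Tlr9 had 0.

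Coding regions of the 8 listed genes differed in length, and those of Tlr9 and Cgas were not analysed here. The longest annotated coding sequence encoded 1050 residues for Tlr7, 905 for Tlr3, 1025 for Ifih1 and 926 for Ddx58, receptors that bind nucleic acid themselves. The other listed genes encoded shorter proteins, with 619 residues for Unc93b1, 419 for Irf3, 378 for Sting1 and 296 for Myd88.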

How the data were processed

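Liver RNA was prepared by the authors after rRNA depletion with a directional library kit. Per the paper's methods and the submitters' processing notes, reads were aligned with STAR 2.5.3a, counted on Ensembl genes and normalized by the RLE method of DESeq2. The genome build was not given in the sources used here, so positions are given only for the RefSeq start-site windows, in the build of that table. The deposited table holds the authors' mean normalized count, a signal averaged over the compared libraries, which was the only value used. Its other columns hold the authors' own comparison of LL35 ASO and Luc ASO (fold change, standard error, statistic and p-values) and were not used, and it has 0 columns of single samples.

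Levels were divided by merged exon length from GENCODE M21 (11754 of 11779 identifiers matched, 25 did not). Percentiles are shares of these genes with a lower level. The percentile step was checked on simulated counts that were drawn with the same merged lengths, so the check cannot judge the choice of length. All steps were run in Python 3.11.15 with pandas 2.3.3, numpy 2.4.6 and matplotlib 3.10.9. The genes and lists were chosen with earlier results of these data known. Genes were named if they were in the list of 10, or if they were the highest, the lowest or a partner of a described gene in a pathway or marker list. Alternatives changed the length, the genes compared and a minimum mean of 50.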

Additional observations from a re-analysis of the deposited data

How the results depend on the processing

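Each value is 1 pooled mean, so leaving out a mouse or a test between groups was not possible here, and the unknown depth limits the precision by an unknown amount. No paired analysis was possible because the usable column pools all mice. Of the 28 pairs of genes, 26 kept their order with the longest transcript, 24 with the coding length, 24 with no division by length and 28 with exon bases free of other genes, an alternative added after the data were seen. The free-base setting shortened the length only and took no reads out. It therefore cannot show what reads from overlapping genes add. The median percentile of the 8 genes was 49.3, and 48.9 among protein-coding genes. Under a minimum mean of 50, which removed Sting1 and left 7, it was 40.5. The number above the median listed gene was 3, also 3 with that minimum, and 4 with no division by length. The ratio of Unc93b1 to Tlr3 and Tlr7 was 3.02, and 3.65 with the longest transcript, 3.15 with the coding length, 2.00 with no division by length and 2.92 with free bases. The ratio of Ddx58 and Ifih1 to Tlr3 and Tlr7 was 3.25, and 4.86, 5.40, 5.41 and 3.14 in the same order. No level of Tlr9 was analysed here, so neither ratio holds it. Tlr8 and Tlr13 were listed but were not among the 10 genes looked for, and neither ratio holds them.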

Other observations

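Nucleases that remove the ligands of these sensors were listed for 9 of 12 genes, with 3 above the median listed gene of 51.5 per kb. Dnase1l3, a secreted nuclease that clears extracellular DNA, was the highest with 183 per kb, and the lysosomal exonuclease genes Pld3 and Pld4 had 74.7 and 27.2 per kb. Samhd1, which degrades deoxynucleotides, had 39.6 per kb and Dnase2a, the lysosomal DNase, 41.3 per kb.

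Of the 5 listed interferon receptor genes, 4 exceeded the median listed gene. Ifnar1 and Ifnar2, the chains of the type I interferon receptor, had 97.1 and 135 per kb, and Ifngr1 and Ifngr2, those of the interferon gamma receptor, 97.8 and 71.0 per kb. Il10rb, a chain shared by the receptors of interferon lambda and IL-10, had 19.2 per kb. Ifnb1, Ifna4, Ifng and Ifnlr1 were not analysed here.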
